A study of Mus musculus with 16 samples.

Results

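The 78 mitochondrial ribosome genes described here are the rows of the deposited table whose symbol begins with Mrpl or Mrps and a digit, among 21923 genes in all. They were measured by poly(A) RNA-seq in the gastrocnemius, a calf muscle, of adult mice. There were 16 libraries, with 4 in each of 4 groups that were all sampled on day 30. NOR mice carried no tumor and were injected with PBS throughout. CAC mice carried a subcutaneous tumor and received PBS, and AM mice carried the same kind of tumor and received amiloride, a sodium transport inhibitor, at 2 mg/kg by intraperitoneal injection from day 9. KD mice received PBS and carried tumors of cells with lentiviral knock-down of Rab27a and Rab27b, which act in exosome release. The knock-down was in the tumor cells and not in the muscle, so muscle Rab27 transcripts do not check it. Replicates 1 and 2 of each group are labelled C57BL/6, the host of LLC lung carcinoma cells, and replicates 3 and 4 BABL/c (as spelled there), the host of CT26 colon carcinoma cells. Strain and tumor line therefore change together. Each library is called a mouse below, though the labels do not say that each is a separate animal.

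Mitochondrial ribosomes translate the few proteins encoded by mitochondrial DNA, all of them subunits of the respiratory chain and of ATP synthase. Their RNA comes from mitochondrial DNA, but every protein is encoded in the nucleus, made on cytosolic ribosomes, and imported. Many of these proteins have counterparts in bacterial ribosomes and others are found only in mitochondria. In muscle, which depends on oxidative metabolism, they are part of the machinery that maintains the respiratory chain. By textbook assignment, 51 of the 78 genes encode proteins of the large subunit and 26 of the small subunit. Names do not always follow position, since Mrps30 and Mrps18a encode large subunit proteins. The last gene, Mrps36, encodes a component of the alpha-ketoglutarate dehydrogenase complex and not a ribosomal protein. A bacterial counterpart was assigned to 46 genes, and 31 were classed as specific to mitochondria.

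Promoter sequences (250 bases before to 50 after the annotated start, RefSeq, GRCm38.p6) were found for 69 of the 78 genes. The 5 shown belong to the gene with the largest fall in CAC, Mrps12 (chr7:28741772-28742071, minus strand), and to 4 genes with lower values in AM than in CAC, Mrps30 (chr13:118387203-118387502, minus strand), Mrps18b (chr17:35916391-35916690, minus strand), Mrpl32 (chr13:14612988-14613287, minus strand), and Mrpl57 (chr14:57825989-57826288, plus strand). They are written 5′ to 3′ on the strand of the gene, and capitals mark matches on either strand to the letters searched for NRF1 (GCGCANGCG), ETS factors such as GABP (CCGGAAG), YY1 (AAGATGGCG), the E-box bound by MYC (CACGTG), ERR (AAGGTCA), and SP factors (GGGCGG).
Mrps12: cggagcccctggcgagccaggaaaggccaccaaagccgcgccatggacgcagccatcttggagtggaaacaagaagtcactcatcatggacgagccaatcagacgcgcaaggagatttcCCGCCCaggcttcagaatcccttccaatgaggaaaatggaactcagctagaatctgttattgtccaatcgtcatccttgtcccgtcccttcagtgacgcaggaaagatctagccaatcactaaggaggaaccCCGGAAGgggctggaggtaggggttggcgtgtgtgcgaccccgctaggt
Mrps30: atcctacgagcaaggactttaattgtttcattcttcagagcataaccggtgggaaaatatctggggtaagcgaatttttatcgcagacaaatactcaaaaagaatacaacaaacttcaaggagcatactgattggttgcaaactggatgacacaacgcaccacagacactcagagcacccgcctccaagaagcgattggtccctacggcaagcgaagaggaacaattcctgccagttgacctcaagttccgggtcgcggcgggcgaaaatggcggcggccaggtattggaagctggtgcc
Mrps18b: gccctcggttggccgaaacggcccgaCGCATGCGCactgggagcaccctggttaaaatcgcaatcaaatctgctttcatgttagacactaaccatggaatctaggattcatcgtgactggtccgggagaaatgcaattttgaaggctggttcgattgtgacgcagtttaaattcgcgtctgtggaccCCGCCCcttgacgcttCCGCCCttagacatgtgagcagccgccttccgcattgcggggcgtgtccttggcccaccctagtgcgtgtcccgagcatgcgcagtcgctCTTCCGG
Mrpl32: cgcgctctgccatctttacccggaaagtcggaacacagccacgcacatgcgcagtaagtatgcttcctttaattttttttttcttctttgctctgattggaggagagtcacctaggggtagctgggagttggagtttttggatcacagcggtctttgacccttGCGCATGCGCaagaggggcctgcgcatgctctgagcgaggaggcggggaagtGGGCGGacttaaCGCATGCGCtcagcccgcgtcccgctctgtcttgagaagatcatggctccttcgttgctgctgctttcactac
Mrpl57: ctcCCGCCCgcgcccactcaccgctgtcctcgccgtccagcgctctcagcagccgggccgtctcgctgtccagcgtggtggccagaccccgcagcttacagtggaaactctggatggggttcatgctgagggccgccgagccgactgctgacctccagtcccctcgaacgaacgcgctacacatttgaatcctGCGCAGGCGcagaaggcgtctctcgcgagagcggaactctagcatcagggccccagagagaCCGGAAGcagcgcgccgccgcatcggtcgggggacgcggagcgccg
NRF1 and GABP are known as nuclear regulators of mitochondrial genes. The NRF1 letters were present in 16 of the 69 promoters (23.2%) and in 6.47% of 27025 promoters of the genome, and the ETS letters in 25 (36.2%) against 9.12%. The YY1 letters were present in 8 (11.6%) against 1.49%, and the SP letters in 34 (49.3%) against 35.9%. The shares for the E-box (5 promoters, 7.25% against 7.24%) and the ERR letters (4 promoters, 5.80% against 4.66%) differed little. Among the 5 shown, Mrpl32 held 3 NRF1 matches, of which 2 overlap, and Mrps30 held no match to any of the searched letters. A match is a description of these windows, not a binding site. The promoters of the genome were not limited to expressed genes or matched for base composition. Of the 78 genes, 23 have a head-to-head neighbor on the other strand whose start lies 26 to 935 bases from their own. In some of these pairs both genes overlap at their starts. The share over all genes was not counted. Mrps12 lies 172 bases from the start of Sars2, Mrpl32 75 bases from Psma2, Mrps18b 45 bases from Ppp1r10, and Mrpl57 49 bases from Ska3.

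Several libraries stood apart before any group was compared. CAC replicate 4, AM replicates 1 and 3, and KD replicate 1 had 161 to 313 CPM (TMM-scaled counts divided by library size) of Gm10260, where the other 12 libraries had 0.899 to 1.85 CPM. For Nnt, whose symbol has 2 rows in the table, the first row had 44.0 to 112 CPM in the same 4 libraries and 5.73 to 21.5 in the others. The second row overlapped, with 50.7 to 202 CPM in the 4 libraries and 19.1 to 60.3 in the others. Libraries labelled C57BL/6 and BABL/c stand on both sides of the division by Gm10260. Whether the strain labels fit the libraries was not settled, and each value by labelled strain below rests on them. KD replicate 3 had 0 CPM of the Y-linked Ddx3y, Kdm5d, Eif2s3y, and Uty, which the other 15 libraries expressed. The labels give C57BL/6 mice as male and BALB/c mice as male and female, while the methods of the study give male mice for both strains. Markers of muscle (Acta1, Ckm, and 5 others) were abundant in every library, at 71747 to 204384 summed CPM. The 10 B and T cell markers summed to between 5.23 and 555 CPM, with high and low libraries in each group. The 5 erythroid markers summed to 1002 to 1374 CPM in NOR and 3646 to 8714 in CAC, the 5 neutrophil markers to 2.91 to 19.7 and 77.0 to 168, and the 5 tendon and fibroblast markers to 1671 to 2447 and 216 to 424. KD mice were spread on the last list, at 2198, 413, 392.1, and 2358 CPM in replicates 1 to 4. The B and T cell level was tried as a covariate, and the part of the other cell types in the results was not tested. In bulk muscle fewer cells of a type and less RNA per cell cannot be told apart. Library totals were 35913190 to 61032708 counts.

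All 78 genes passed the count filter in each comparison. On the FPKM scale, which accounts for transcript length, their mean levels in NOR spanned 78.8-fold around a median of 28.8 FPKM. Mrpl42, a large subunit protein specific to mitochondria, was highest at 291.1 ± 36.001 FPKM (SD, n = 4), followed by Mrps21 at 132 ± 18.1 and Mrpl23 at 91.6 ± 7.00. Mrpl19 was lowest at 3.69 ± 0.0608 FPKM, below Mrpl47 at 4.64 ± 0.107 and Mrps25 at 6.19 ± 1.16. Between mice of a group, the median coefficient of variation of CPM over the 78 genes was 9.85% for NOR mice, 11.9% for CAC mice, 11.6% for AM mice, and 17.4% for KD mice.

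The genes were first summed in each library, to ask whether their total level differed between groups. Their summed CPM was 3394, 3203.5, 2856, and 2927 in NOR replicates 1 to 4, a mean of 3095 ± 249 (SD, n = 4). In CAC it was 2951, 3034, 2549, and 3143, with a mean of 2919 ± 259. AM replicates had 2447, 2712, 3027, and 2898 (2771 ± 252), and KD replicates 2606, 3737, 3143, and 2765 (3063 ± 503). The 4 groups overlapped, and the differences between their means were smaller than the range within any group. The direction of 2 differences turned with the scale, since the mean of CAC was 5.69% below NOR in CPM and 1.36% above it in FPKM, and that of KD 4.91% above CAC in CPM and 3.55% below it in FPKM. In TMM-scaled CPM, KD replicate 2, which had the lowest TMM factor (0.852), had the highest sum and held the highest value of 42 of the 78 genes. In FPKM the sum was highest in CAC replicate 4 (3180) ahead of KD replicate 2 (3146). KD replicate 2 also had the highest sums of the erythroid (21196 CPM) and slow fiber markers (7045 CPM), whose part in this was not tested. The lowest CPM values were mostly in AM replicate 1 (29 genes), CAC replicate 3 (22 genes), and KD replicate 1 (13 genes), the libraries with the 3 highest TMM factors (1.11, 1.24, and 1.14). CAC replicate 3 also had the lowest sum of muscle markers (71747 CPM), and its sum of the 78 genes in FPKM (2970) was among the 4 highest. The small subunit took 27.9% to 29.8% of the sum in every library.

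**Figure D1:**
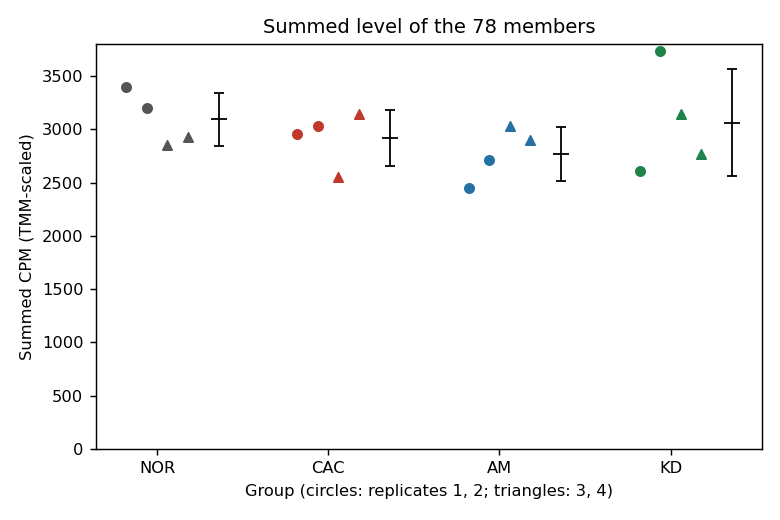
Summed CPM (TMM-scaled) of the 78 mitochondrial ribosome genes by group, with 1 point per mouse (circles for replicates 1 and 2, triangles for 3 and 4) and the mean ± SD of 4 mice beside them. The groups overlap, and KD replicate 2 is highest at 3737.

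The first comparison, CAC against NOR, shows how these genes stood in tumor-bearing mice. In the CAC gastrocnemius, 2 of the 78 genes were downregulated, Mrps12 and Mrpl19, and 0 were upregulated, by edgeR's quasi-likelihood F test (FDR, adjusted after Benjamini and Hochberg, within 0.05 and change of 1.5-fold or more). Among all 14666 genes tested, 9.45% were called by this rule and 5.13% were called lower. With no limit on the fold change, 6 of the 78 genes (4 lower and 2 higher) and 14% of all genes had an FDR within 0.05. The median log2 fold change was -0.08 over the 78 genes and 0.01 over all genes tested, and 28 of the 78 values were positive. With total counts as the only scaling the 2 medians became 0.05 and 0.14, so the sign of the first depends on the scaling while its place below the second does not. Leaving out 1 library gave medians of -0.02 (without NOR replicate 1) to -0.12 (without NOR replicate 3) over the 78 genes. DESeq2 and limma-voom each called 3 of the 78, adding Mrpl48, beside 13.1% and 9.91% of all genes. The median was -0.09 for the large subunit and -0.07 for the small subunit, and -0.08 for genes with a bacterial counterpart and -0.06 for those specific to mitochondria.

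Mrps12 (ENSMUSG00000045948, chromosome 7, 28739641 to 28741820, GRCm38) encodes the counterpart of bacterial S12, a protein of the decoding center of the small subunit. Its level was 31.9, 30.1, 29.0, and 30.8 CPM in NOR replicates 1 to 4. In CAC it was 19.3, 20.7, 16.04, and 15.9 CPM. All CAC values lay below all NOR values, and the AM values, 17.7, 20.7, 14.1, and 22.0 CPM, overlapped those of CAC. The KD values, 17.3, 32.8, 23.7, and 27.9 CPM, overlapped those of both NOR and CAC. Mrps12 was 1.70-fold lower in CAC than in NOR (log2 fold change -0.77, SE 0.111, edgeR FDR 0.0054). Within the mice of 1 labelled strain (2 against 2) the log2 fold change was -0.63 for C57BL/6 and -0.88 for BABL/c, with an FDR above the limit in both (0.0784 and 0.130). Its neighbor Sars2, a mitochondrial seryl-tRNA synthetase, had 18.9 ± 1.07 CPM in NOR and 13.7 ± 1.88 in CAC (log2 fold change -0.48, edgeR FDR 0.0294). In AM it had 19.9 ± 2.34 CPM (0.54 against CAC, edgeR FDR 0.0524), where Mrps12 was at 0.05.

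Mrpl19 (ENSMUSG00000030045, chromosome 6, 81957851 to 81965958, GRCm38) encodes a large subunit protein with a bacterial counterpart. Its level was 21.4, 18.2, 18.7, and 18.1 CPM in NOR and 11.8, 12.9, 12.02, and 12.1 CPM in CAC. The CAC mice lay close together, below every NOR mouse. AM mice had 14.1, 14.0, 17.6, and 19.9 CPM and KD mice 19.2, 15.4, 18.9, and 19.0 CPM, so that every AM and KD value lay above every CAC value. Mrpl19 was 1.57-fold lower in CAC than in NOR (log2 fold change -0.65, SE 0.108, edgeR FDR 0.00864). The call was lost without NOR replicate 1 (log2 fold change -0.57), with total counts as the only scaling (-0.52), and within each labelled strain. Mrpl19 overlaps Gcfc2 on the other strand by 1962 exonic bases and 37.9% of its 31-base words also occur elsewhere in the transcriptome, and whether reads were counted by strand is not given in the sources used here.

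**Figure D2:**
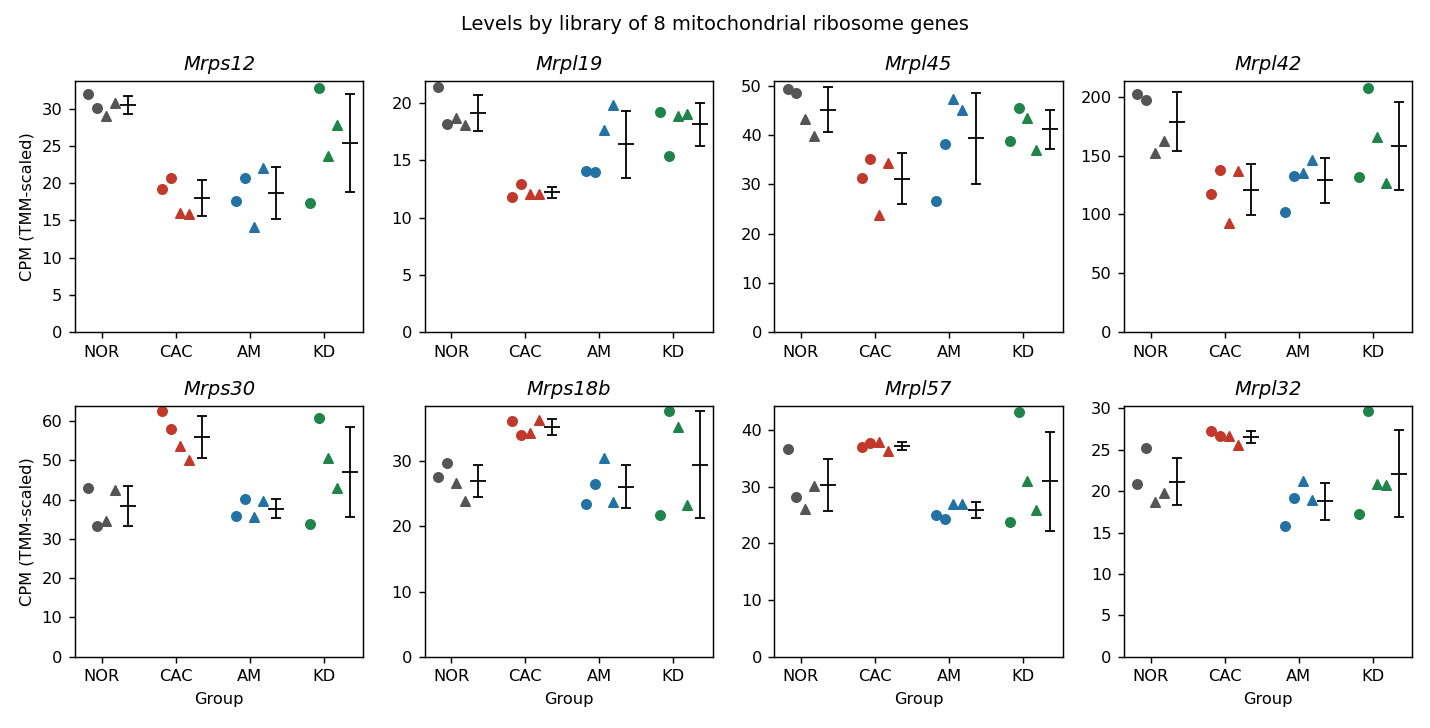
CPM (TMM-scaled) of 8 mitochondrial ribosome genes by group, with 1 point per mouse (circles for replicates 1 and 2, triangles for 3 and 4) and the mean ± SD of 4 mice beside them. Mrps12, Mrpl19, Mrpl45, and Mrpl42 are lower in every CAC mouse than in every NOR mouse, and Mrps30, Mrps18b, Mrpl57, and Mrpl32 are lower in every AM mouse than in every CAC mouse. Each gene is shown for its FDR within 0.05 in the comparison named, so the separation is no further support.

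Of the other 4 genes with an FDR within 0.05 in CAC vs. NOR, whose fold changes were under the limit of 1.5, 2 were lower in CAC. Mrpl45, which anchors the ribosome near the inner membrane, had 49.3, 48.5, 43.2, and 39.8 CPM in NOR and 31.2, 35.1, 23.9, and 34.4 CPM in CAC (log2 fold change -0.54, SE 0.137, edgeR FDR 0.034). Mrpl42 had 202, 198, 152, and 163 CPM in NOR and 117, 138, 92.4, and 137 CPM in CAC (log2 fold change -0.57, SE 0.158, edgeR FDR 0.0463). Neither gene's CAC range overlapped its NOR range. How many of all genes were separated between groups in this way was not counted, so such separations only describe single genes. Both were taken up in this comparison after their values were seen, as were Mrpl23 and Mrps18b in the next.

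The 2 genes that were higher in CAC are both specific to mitochondria. Mrps30 (ENSMUSG00000021731, chromosome 13, 118378381 to 118387252), a large subunit protein despite its name, had 42.9, 33.2, 34.6, and 42.4 CPM in NOR and 62.4, 57.9, 53.6, and 49.98 CPM in CAC (log2 fold change 0.54, SE 0.124, edgeR FDR 0.0245). Mrps18b (ENSMUSG00000024436, chromosome 17, 35910379 to 35916389), a small subunit protein, had 27.6, 29.8, 26.7, and 23.9 CPM in NOR and 36.2, 34.0, 34.3, and 36.3 CPM in CAC (log2 fold change 0.38, SE 0.0927, edgeR FDR 0.0312). For both genes all CAC mice lay above all NOR mice. Mrps30 was called higher, with a change above the limit, in the 2 settings in which Mrpl19 lost its call on the fold change, total counts as the only scaling (0.67, edgeR FDR 0.00798) and without NOR replicate 1 (0.63, edgeR FDR 0.0239). Mrps18b overlaps Gm16279 and Mrps30 overlaps B430218F22Rik on the other strand, by 638 and 623 exonic bases. Its relatives Mrps18a (0.07, FDR 0.782) and Mrps18c (0.01, FDR 0.978) had log2 fold changes near 0 in the same edgeR fit.

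Mrpl12, a protein of the stalk that recruits translation factors and is known to bind the mitochondrial RNA polymerase, stood just outside the limit. It had 131, 110, 100.0, and 105 CPM in NOR and 72.2, 82.0, 66.6, and 96.0 CPM in CAC, without overlap (log2 fold change -0.50, SE 0.144, edgeR FDR 0.0522). Mrpl58, a peptidyl-tRNA hydrolase built into the large subunit, had a log2 fold change of -0.24 (edgeR FDR 0.265), and Mrps36 one of -0.34 (edgeR FDR 0.162). Mrpl48 had the third lowest value, -0.59 (edgeR FDR 0.0622), and was called by DESeq2 (-0.60, FDR 0.0174) and limma-voom (-0.64, FDR 0.0488). Mrps26 (0.42, edgeR FDR 0.0849) and Mrpl14 (0.38, edgeR FDR 0.400) followed Mrps30 at the other end, and without CAC replicate 4 they were at 0.26 and 0.037.

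Of the 78 genes, 2 were higher (Mrpl14 and Mrps26) and 3 lower (Mrpl24, Mrpl55, and Mrps10) in each of the 4 libraries that stood apart than in any of the other 12. These 5 genes are 6.41% of the 78, and 2.97% of the 15220 genes tested over all libraries were separated in the same way. The last 3 were named after their values were seen. Mrpl14 had 114 CPM in CAC replicate 4, 72.9 and 91.6 in AM replicates 1 and 3, and 73.4 in KD replicate 1, and 43.5 to 72.4 CPM in the other 12 libraries. Mrps26 had 74.1, 55.5, 58.1, and 55.2 CPM in the same 4 libraries and 38.4 to 52.9 in the others. Mrpl55 had 26.2, 16.6, 22.6, and 18.5 CPM in them and 31.6 to 52.6 in the others. Mrpl48 was mostly low in the 4 libraries (17.4, 14.8, 26.3, and 21.4 CPM) but overlapped the others (21.4 to 42.8 CPM). Without CAC replicate 4, 5 of the 78 genes and 8.57% of all genes were called in CAC vs. NOR, with Mrpl45 and Mrpl12 lower and Mrps30 higher beside Mrps12 and Mrpl19.

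**Figure D3:**
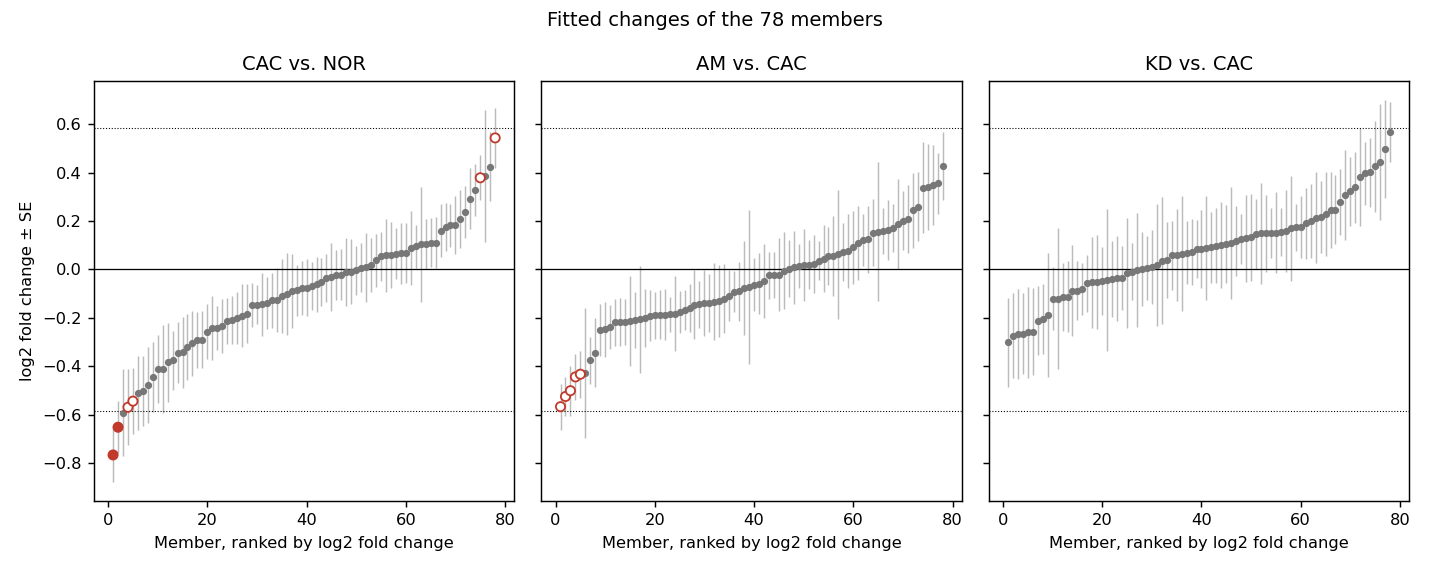
Log2 fold changes ± SE (edgeR, 4 mice against 4) of the 78 genes, ranked within each comparison. Filled red points have an FDR within 0.05 and a fold change of at least 1.5 (dotted lines), open red points only the former. The points lie on both sides of 0 in each panel, with 2 filled points in CAC vs. NOR and none in the other panels.

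AM was then compared with CAC, to ask what amiloride changed in tumor-bearing mice. This comparison uses the same CAC libraries as the first. By edgeR, 0 of the 78 genes were called where 3.66% of 14674 genes were, and DESeq2 and limma-voom also called 0, beside 7.63% and 3.77% of all genes. An unadjusted p below 0.05 was reached by 13 of the 78 genes and by 21.7% of all genes. With no fold change limit, 5 of the 78 genes had an FDR within 0.05, all lower in AM, beside 4.98% of all genes in either direction and 3.22% lower. The median log2 fold change was -0.07 over the 78 genes and 0.01 over all genes tested. The tendon and fibroblast markers, at 216 to 424 summed CPM in CAC, were at 1259 to 1793 in AM. Leaving out 1 library gave medians of -0.02 (without AM replicate 1) to -0.12 (without AM replicate 3) over the 78 genes. Without the libraries that stood apart, which leaves 2 AM against 3 CAC mice, edgeR called 0 of all genes.

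The 5 genes were Mrpl57, Mrps30, Mrpl32, Mrpl23, and Mrps18b. Mrps30 had 35.7, 40.0, 35.5, and 39.7 CPM in AM (log2 fold change -0.57, SE 0.0946, edgeR FDR 0.0166), below all 4 CAC mice and within the NOR range. Mrps30 was called, with a fold change above the limit, without CAC replicate 4 (-0.62), AM replicate 2 (-0.59), or AM replicate 4 (-0.60), beside 3%, 1.71%, and 1.59% of all genes, and Mrps30 and Mrpl57 were called with total counts as the only scaling, beside 3.74%. Without the libraries that stood apart its log2 fold change was -0.56 (edgeR FDR 0.128, 2 mice against 3). Mrps18b had 23.4, 26.6, 30.6, and 23.8 CPM in AM (-0.43, SE 0.0975, edgeR FDR 0.0436), again below all CAC mice. Its neighbor Ppp1r10, a phosphatase regulator, had log2 fold changes of 0.05 in CAC vs. NOR (edgeR FDR 0.840) and -0.37 in AM vs. CAC (edgeR FDR 0.0858), and Ska3 beside Mrpl57 was at 0.184 to 0.319 CPM in the group means.

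Mrpl57, a small large-subunit protein specific to mitochondria, had 37.03, 37.7, 37.8, and 36.2 CPM in CAC and 24.96, 24.3, 27.01, and 27.01 CPM in AM (log2 fold change -0.53, SE 0.0816, edgeR FDR 0.0137). Mrpl32, whose product is processed by a mitochondrial protease before it enters the ribosome, had 27.3, 26.7, 26.6, and 25.6 CPM in CAC and 15.8, 19.2, 21.2, and 18.9 CPM in AM (-0.50, SE 0.103, edgeR FDR 0.0319). The CAC mice lay close together for both genes, and no AM mouse reached them. The neighbor of Mrpl32, the proteasome subunit Psma2, had 109 ± 14.6 CPM in CAC and 79.1 ± 2.98 in AM (-0.46, edgeR FDR 0.0608). Mrpl23, a protein at the exit of the nascent chain tunnel, had 85.3, 74.2, 63.3, and 73.2 CPM in CAC and 50.6, 53.2, 56.3, and 56.99 CPM in AM (-0.44, SE 0.0937, edgeR FDR 0.0352).

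In the other direction, the largest values in AM vs. CAC were those of Mrpl19 (0.43, edgeR FDR 0.121), Mrpl3 (0.36, edgeR FDR 0.149), and Mrpl28 (0.35, edgeR FDR 0.273), all above the limit. Without CAC replicate 3 the value of Mrpl28 was 0.20. Mrps12 had a log2 fold change of 0.05 (SE 0.166, edgeR FDR 0.892).

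KD was compared with CAC, again with the same CAC libraries, to ask what followed the knock-down of Rab27 in the tumor cells. By edgeR, 0 of the 78 genes and 0.00685% of 14593 genes were called. DESeq2 and limma-voom called 0 of the 78, beside 2.33% and 0% of all genes, and an edgeR fit of all 16 libraries called 0 of the 78 beside 0.953%. An unadjusted p below 0.05 was reached by 5 of the 78 genes and 11.1% of all genes. The median log2 fold change was 0.08 over the 78 genes, with 51 positive values, and 0.00 over all genes tested (-0.05 and -0.11 with total counts as the only scaling). Without KD replicate 2 the median of the 78 genes turned to -0.039, and without KD replicate 1 it was 0.14. The largest values were those of Mrpl19 (0.57, SE 0.123, edgeR FDR 0.236), Mrps12 (0.50, SE 0.203, edgeR FDR 0.418), and Mrpl48 (0.44, edgeR FDR 0.540). Mrpl46 (0.40, edgeR FDR 0.342) and Mrpl45 (0.40, edgeR FDR 0.366) were among the 3 of lowest p. At the other end, Mrps26 (-0.30), Mrps25 (-0.27), and Mrpl57 (-0.27) had edgeR FDRs of 0.588 to 0.648. Leaving out 1 library moved each by over 1.5 times, Mrps26 to -0.14 (without CAC replicate 4), Mrps25 to -0.45 (without KD replicate 2), and Mrpl57 to -0.48 (without KD replicate 2) or -0.16 (without KD replicate 1). For Mrps30 and Mrps18b the KD mice overlapped the CAC mice, with 33.7, 60.8, 50.5, and 43.0 CPM of Mrps30.

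Treated mice were also compared with NOR and with each other. In AM vs. NOR, edgeR called 0 of the 78 genes and 0% of all genes, with 11 of the 78 and 9.19% of all genes at an unadjusted p below 0.05. DESeq2 called 1 of the 78 there, Mrps12 (log2 fold change -0.71), and 0.475% of all genes, and limma-voom 0 of the 78. In the edgeR fit Mrps12 was at -0.70 (SE 0.138, FDR 0.518), with every AM mouse below every NOR mouse. The median was -0.14 over the 78 genes and 0.02 over all genes, and 9 of the 78 values were positive. In KD vs. NOR, edgeR called 0 of the 78 genes and 0% of all genes, with 0 of the 78 and 3.54% of all genes at an unadjusted p below 0.05. In AM vs. KD the same counts were 0 and 0%, with 0 of the 78 and 1.11% of all genes at an unadjusted p below 0.05. In the last 2 comparisons limma-voom called 0 of the 78 and 0% of all genes, and DESeq2 called 0 of the 78 beside 0.21% of all genes in KD vs. NOR and 0.00678% in AM vs. KD.

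The labelled strain was tested across all 16 libraries with the group as a covariate. It separated 0 of the 78 genes and 0% of 15220 genes by edgeR, with 1 of the 78 (Mrps18c) and 1.63% of all genes at an unadjusted p below 0.05, and 0 of the 78 by DESeq2 and limma-voom. Whether the 3 contrasts with CAC differed between labelled strains was tested as an interaction term with no fold change limit, and edgeR called 0 of the 78 genes and 0% of all genes in each. DESeq2 called 1 in AM vs. CAC, Mrps28 (0.74, named after its value was seen), beside 3.05% of all genes, and 0 in the other 2. Unadjusted p values below 0.05 were reached by 1 of the 78 genes (4.89% of all) for CAC vs. NOR, 9 (12.4%) for AM vs. CAC, and 0 (5.65%) for KD vs. CAC. In AM vs. CAC, 70 of the 78 interaction terms were positive, with a median of 0.23 where all genes had -0.02. The median log2 fold change in AM vs. CAC was -0.22 in mice labelled C57BL/6 and 0.09 in those labelled BABL/c. The summed FPKM of the 78 genes did not turn in this way, with 2571 and 2574 in AM against 2687 and 2851 in CAC for the former, and 2841 and 2660 against 2970 and 3180 for the latter.

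Lists of related genes were set beside the 78 genes, as medians and counts of called genes. Called genes had an edgeR FDR within 0.05 and a fold change of at least 1.5. In CAC vs. NOR the lists are read against the 9.45% of all genes called (5.13% lower and the rest higher) and an all-gene median of 0.01. In CAC vs. NOR the cytosolic ribosome, which makes the mitochondrial ribosomal proteins, had a median log2 fold change of 0.45, with 12 of 78 tested genes called higher and 0 lower. The nuclear subunits of the respiratory chain had a median of -0.39 (0 higher and 11 lower of 82), the citric acid cycle -0.55 (0 and 4 of 18), and the 13 proteins encoded by mitochondrial DNA -0.43 (0 and 0). The -0.08 of the mitochondrial ribosome thus lay between those of the cytosolic ribosome and the respiratory chain. In AM vs. CAC the medians were -0.43 for the cytosolic ribosome, 0.20 for the respiratory chain, 0.40 for the citric acid cycle, and 0.24 for the mitochondrially encoded proteins. In KD vs. CAC they were -0.43, 0.29, 0.46, and 0.44.

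**Figure D4:**
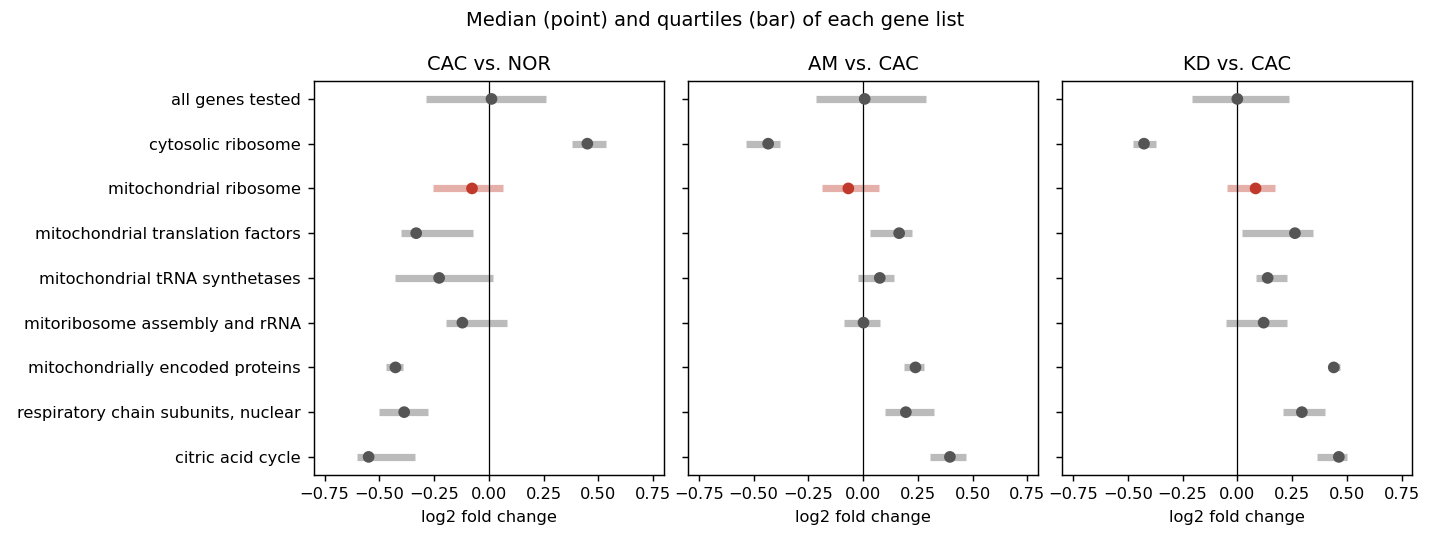
Median (point) and quartiles (bar) of the log2 fold change in each gene list and over all genes tested, for 3 comparisons that share the CAC mice. The mitochondrial ribosome (red) has medians of -0.08, -0.07, and 0.08.

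Genes that serve the mitochondrial ribosome were read in the same way, and 1 call among 15 or 26 genes is no larger a share than the 9.45% of all genes. Of 15 translation factors, 1 was called in CAC vs. NOR, Taco1, a translational activator of a cytochrome oxidase subunit (50.9 CPM in NOR and 24.7 in CAC, log2 fold change -1.06, edgeR FDR 0.00383). The median of this list was -0.33, and that of the 17 mitochondrial tRNA synthetases, of which 0 were called and 5 had an unadjusted p below 0.05 (4269 of 14666 over all genes), was -0.23. Of 26 assembly factors, 1 was called, and it was higher in CAC. This was Malsu1, which acts in the assembly of the large subunit (log2 fold change 0.76, edgeR FDR 0.00468 in CAC vs. NOR). It had 39.5 ± 4.42 CPM in NOR mice and 67.3 ± 1.71 in CAC mice (SD, n = 4). AM mice had 38.4 ± 2.06 CPM, and KD mice were widely spread at 42.6 ± 18.9 CPM. Malsu1 was also the only gene of these 3 lists called in AM vs. CAC (-0.81, edgeR FDR 0.00223), where 3.66% of all genes were called. Of 16 genes for mitochondrial transcription and RNA processing, Hsd17b10, a subunit of mitochondrial RNase P, was higher in CAC (0.63, edgeR FDR 0.0488), and Mterf2 was lower (-1.09, edgeR FDR 0.0331). Of 9 regulators of mitochondrial biogenesis, Myc was higher (1.05, edgeR FDR 0.0229), and the nuclear receptor Esrra (-0.73, edgeR FDR 0.0244) and the coactivator Ppargc1b (-0.69, edgeR FDR 0.0381) were lower. In AM vs. CAC, Myc (-1.02, edgeR FDR 0.0378) and Ppargc1b (0.88, edgeR FDR 0.0444) were called in the opposite directions. This comparison shares its CAC libraries with CAC vs. NOR, and no set test was made for these short lists.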

How the data were processed

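Per the labels and the paper, poly(A) RNA was sequenced by a service company. The submitters' processing notes name fastp, Bowtie2, HISAT2, and StringTie 1.3.1 and the builds mm9 and GRCm38, with no roles. The authors deposited raw counts per gene, without normalization, and FPKM values for the same 16 libraries. Counts were compared in R 4.3.3 with edgeR 4.0.16 (TMM scaling, then filterByExpr set to 10 counts per gene and 15 in total, then the quasi-likelihood F test), each fit using the 8 libraries of the groups compared, with Benjamini-Hochberg adjustment over all genes tested. Called genes (DEGs) had an FDR within 0.05 together with a change above 1.5-fold or below 0.667-fold. NOISeq, which the authors used, was not installed. DESeq2 1.42.0 and limma 3.58.1 (voom), other scalings and filters, covariates, each labelled strain alone, and each mouse left out served as alternatives. The edgeR, DESeq2, and voom fits were tested on simulated data. Positions, overlaps, and 31-base words came from GENCODE M21 (GRCm38), matched by identifier. FPKM served for levels between genes. Mice of a group differed by far more than sampling noise (chi-square per degree of freedom at least 66.6 for 2 libraries of a group). The labels number the replicates without saying that each is a separate animal, so p values measure the spread between these samples.

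Members and lists were chosen with earlier results of these data known. The genes named are called members, the 3 largest rises, falls, and lowest p values in each of the first 3 comparisons, the 3 highest and lowest in FPKM, 7 genes named for their roles, and called genes of the lists (at most 4 per list and comparison). Mrps28, head-to-head neighbors, Gm10260, and the Y-linked genes were named after their values were seen.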

Additional observations from a re-analysis of the deposited data

Results flagged for a closer look

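In 96 groups of 4 mice (the summed level and the named genes in each group), 3 held a mouse far from the other 3 by Dixon's test at the 95% level, where chance gives about 1 in 20. Mrpl19 was at 15.4 CPM in KD replicate 2 and at 18.9 to 19.2 in the other KD mice. Mrpl48 was at 21.4 CPM in KD replicate 1, 1 of the 4 libraries that stood apart, and at 36.8 to 38.2 in the other KD mice. Mrps18c was at 15.2 CPM in CAC replicate 1 and at 11.1 to 11.6 in the other CAC mice.

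For 3 of the genes named by the rules above, both mice of 1 labelled strain lay above the mean of their own controls. Both mice of the other strain lay below theirs, though single mice of the groups compared overlapped. This count covers only those named genes in the first 3 comparisons. Other members, such as Mrps28 and Mrps31 in AM vs. CAC, also lay on opposite sides of these means. None of the 3 genes had a called interaction with the labelled strain by edgeR. Mrpl14 in KD vs. CAC had log2 fold changes of 0.32 in mice labelled C57BL/6 and -0.56 in those labelled BABL/c (interaction -0.88, FDR 0.866), where the mean of the latter CAC mice was raised by replicate 4 (114 CPM, and 43.5 in replicate 3), 1 of the libraries that stood apart. Mrpl58 in AM vs. CAC had -0.28 and 0.13 (interaction 0.42, FDR 0.465), and Mrps25 in CAC vs. NOR had 0.12 and -0.22 (interaction -0.29, FDR 0.998).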

How the results depend on the processing

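In CAC vs. NOR the count of called members was 4 with upper-quartile scaling (9.83% of all genes were called there), 0 in mice labelled C57BL/6 alone (1.69%), 0 in those labelled BABL/c alone (0%), and 6 with no fold change limit (14%). In alternatives chosen after the data were seen it was 5 without the 4 libraries that share a pattern (8.57%) and 4 with the B and T cell marker level as a covariate (11.4%). Without single replicates it was 2 to 5 (4.91% to 8.57%). In AM vs. CAC the count was 2 with total counts only (3.74%), 5 with no fold change limit (4.98%), 1 with the B and T cell covariate (2.92%), and 0 to 1 without single replicates (1.42% to 3%). DESeq2 gave 1 call in AM vs. NOR and 1 interaction in AM vs. CAC, Mrps28. The median in AM vs. CAC was 0.086 in mice labelled BABL/c alone, and Mrps26 in KD vs. CAC was 0.029 in mice labelled C57BL/6 alone, where the direction turned. The cause was not tested, except that 2 mice against 2 and the missing fold limit are the alternatives' own construction. With total counts only, the median of all genes was 0.14 in CAC vs. NOR and -0.11 in KD vs. CAC, and those of the members 0.05 and -0.05, the opposite sign of the main values but on the same side of all genes. The summed level in CAC vs. NOR differed by -5.69% in CPM and 1.36% in FPKM, and in KD vs. CAC by 4.91% and -3.55%. Without single replicates the medians were -0.12 to -0.02 in CAC vs. NOR, -0.12 to -0.02 in AM vs. CAC, and -0.039 to 0.14 in KD vs. CAC. These were moves of over 1.5 times, and the last included a turn of sign. They were smaller than the SD of 0.149 between libraries. That says little, since 1 library left out of 4 moves a group by only part of its deviation. A count of 2 called members in CAC vs. NOR did not always hold the same genes: with total counts only and without NOR replicate 1 it was Mrps12, lower, and Mrps30, higher. Counts of 0 where about 0% of all genes were called say nothing about stability.

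Replicate numbers did not pair the mice (correlations of deviations -0.71 to 0.67, 6 of 24 above 0.1, and 4 best with their own number). With the number as a replicate block, 3 members were called in CAC vs. NOR and 0 in the other 5 comparisons, and over all genes 1140 and 0 were called in CAC vs. NOR and AM vs. CAC, where 1386 and 537 were called without it. Few mice and a median spread of 9.85% to 17.4% per gene within groups limit what could be detected.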
